A study of Mus musculus with 17 samples.

Results

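The 4 genes described here, Birc2, Birc3, Cflar and Bad, act where a T cell decides between survival and apoptosis. They are 4 of the 47643 rows of a table of gene counts from splenic regulatory T cells (Tregs) of NOD mice, which develop autoimmune diabetes spontaneously. The 4 rows were picked by gene name, with their values in all 17 libraries already known, so their levels and differences are given as a description.

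Cells were Foxp3-GFP+ Tregs sorted from spleen after CD4+ enrichment, and every group carried the Foxp3-GFP reporter, which marks cells that express the Treg transcription factor Foxp3. The genotypes were an Nfkbid transgenic (NOD-60A.Foxp3-GFP, 6 libraries) and an Nfkbid knockout (NOD-Nfkbid-KO.Foxp3-GFP, 5 libraries), set against NOD.Foxp3-GFP controls (6 libraries). The Nfkbid product is a nuclear member of the IkB family that tunes NF-kB at its target genes. Transgenic libraries were made from single samples, while RNA of 2 samples was pooled for every knockout and control library, so genotype and pooling cannot be told apart in comparisons with the transgenic group. Running numbers in the headers of the counts also set all transgenic libraries apart from all knockout libraries, with the controls split between number series. What these numbers stand for is not stated, and they cannot be told apart from genotype in transgenic against knockout. The promoter of the transgene and the ages of the animals are not given in the sources used here.

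NF-kB dimers are held in the cytoplasm by IkB proteins, and signals from the T cell receptor, CD28 and TNF family receptors release them to the nucleus. There they switch on inhibitors of cell death, among them Birc2 and Birc3, which encode the ubiquitin ligases cIAP1 and cIAP2, and Cflar, which encodes c-FLIP. Both cIAPs ubiquitinate proteins of the TNF receptor complex and hold the noncanonical NF-kB kinase NIK in check, and c-FLIP keeps caspase 8 from being activated at death receptors. Bad works on the other side, as a BH3-only protein that binds BCL-XL at the mitochondrion until survival kinases phosphorylate it and 14-3-3 proteins hold it in the cytosol.

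Birc2 (ENSMUSG00000057367, chr9:7818227-7837064, GRCm38, minus strand) and Birc3 (ENSMUSG00000032000, chr9:7848699-7873186, minus strand) are paralogs lying side by side, 11.63 kb apart. Their longest shared run of coding sequence is shown because a 67 bp read that falls inside it matches both genes equally. It is 114 bases long and lies in exon 5 of 8 of Birc2 (chr9:7821098-7821211) and exon 6 of 9 of Birc3 (chr9:7854491-7854604), read on the minus strand from GENCODE transcripts on GRCm38.
shared run of Birc2 and Birc3: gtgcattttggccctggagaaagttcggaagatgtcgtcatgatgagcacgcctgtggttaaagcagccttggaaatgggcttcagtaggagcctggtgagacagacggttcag
Of the 4579 distinct 67-base words in annotated Birc2 transcripts, 48 (1.05%) also occurred in another gene, which was Birc3. For Birc3 this was 259 of 5079 (5.1%), most of them in the annotated gene Gm7019, and for Cflar 774 of 12893 (6%), most in Gm9845. For Bad it was 453 of 2789 (16.2%), all shared with Gpr137 when both strands were compared, so the count of the Bad row is the least certain of the 4 in this respect.

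The promoters of the cIAP pair are shown because the neighbours differ in base composition. Both are RefSeq sequences on GRCm38.p6, 300 bases on the minus strand across the annotated start, with CG dinucleotides in capitals. They cover chr9:7837008-7837307 for the first of the pair of windows listed for Birc2 and chr9:7873121-7873420 for Birc3.
Birc2 promoter 1: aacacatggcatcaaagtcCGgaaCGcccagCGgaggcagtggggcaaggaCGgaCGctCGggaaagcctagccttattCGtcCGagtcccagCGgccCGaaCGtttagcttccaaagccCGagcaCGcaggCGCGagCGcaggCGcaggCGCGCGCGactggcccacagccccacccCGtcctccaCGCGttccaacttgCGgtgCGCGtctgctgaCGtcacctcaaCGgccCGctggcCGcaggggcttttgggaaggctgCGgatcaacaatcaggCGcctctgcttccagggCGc
Birc3 promoter: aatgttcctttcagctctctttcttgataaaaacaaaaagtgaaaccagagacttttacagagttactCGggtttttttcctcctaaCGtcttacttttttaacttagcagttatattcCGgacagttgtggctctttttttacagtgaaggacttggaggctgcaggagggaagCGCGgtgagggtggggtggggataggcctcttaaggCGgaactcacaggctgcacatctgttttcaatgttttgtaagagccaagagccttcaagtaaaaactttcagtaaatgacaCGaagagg
The first Birc2 window held 34 CG dinucleotides at 67% GC, the second Birc2 window (chr9:7836757-7837056, minus strand) 21 at 60% GC and the Birc3 window 7 at 43% GC. Over the 32851 promoters in the RefSeq table the median was 7 CG dinucleotides and 52.7% GC. The Cflar promoter (chr1:58711241-58711540, plus strand) had 12 at 45% GC, and the first of the pair listed for Bad (chr19:6941611-6941910, plus strand) had 27 at 65.7% GC. An NF-kB motif was searched on both strands, as GGGNNTTTCC and as the looser GGGNNNTTCC, which contains the first. The stricter one occurred in 1.63% of all promoters and the looser one in 5.56%, and neither occurred in the 6 windows listed for the 4 genes. Both forms end in TTCC, so NF-kB sites of other sequence, or outside these 300 bases, would be missed.

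Libraries held 3133388 to 4726615 counts, and 3 counts corresponded to 0.6196 to 1.031 CPM, the count scaled to the library total with edgeR's TMM factors, which is the unit of all levels here. Knockout replicates 2, 3 and 5 had counts in 13476 to 13802 rows, against 15039 and 15931 in the other knockout libraries, 15801 to 16705 in transgenic libraries and 15815 to 17379 in control libraries. In those 3 knockout libraries the mitochondrial share of counts was 25.31 to 28.16%, and it was 19.66 to 24.81% in all others. Of the Treg markers, Foxp3 held 257 to 368 CPM and Il2ra 113 to 203 CPM, but Cd3e, a subunit of the T cell receptor complex, held at most 3.07 CPM and Tnfrsf18, the Treg receptor GITR, at most 0.301 CPM. The sum of the 10 Treg markers was 1670 to 1850 CPM in the transgenic group, 1400 to 1500 CPM in the knockout group and 1350 to 1500 CPM in controls. Of the B cell markers reported here, Cd79a held 18.9 to 80.7 CPM and Ms4a1 at most 4.86 CPM, and Cd79b was at 0 in every library. Sums of NK cell, myeloid and CD8 T cell markers were at most 23.8 CPM, and 4 of 6 erythroid markers were at 0. The 5 dendritic cell markers summed to 71.3 to 85.9, 81.8 to 92.2 and 60.2 to 79.8 CPM in transgenic, knockout and control libraries, nearly all from Zbtb46 at 55.3 to 86.2 CPM, while Flt3 had a median of 5.5 CPM, Itgax and Siglech reached at most 3.38 and 3.61 CPM and Xcr1 was at 0. The part of these markers and of library quality in the results below was not tested, and in bulk samples fewer cells of a type and less RNA per cell cannot be told apart.

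Whether each row counts the gene it names was examined because of values such as those of Cd3e and Tnfrsf18. All rows starting within 4 Mb of a gene's start, on either side, were moved along the chromosome in steps of 0.5 kb, from -20 to 100 kb. Spearman's rho was taken across rows between the mean count and the share of a row's exon bases on annotated exons. Rows are not independent replicates, and this scan was chosen after the data had been seen. With no move, every row of a protein-coding gene lies wholly on annotated exons by construction. The unmoved rho thus only compares kinds of genes, such as coding genes and pseudogenes. It cannot show that a row counts its own gene, and it is not comparable with the rho at other moves. Around Bad the rho of 0.451 over 335 rows was highest with no move. It was nearly as high at moves of 2, 2.5 and 3 kb, at 0.428, 0.4364 and 0.4312. Around Birc2 and Birc3 the 49 rows gave 0.4 unmoved and at most 0.567, at -7.5 kb, on a curve with many near-equal maxima. Around Cflar the 168 rows gave 0.273 unmoved and a peak of 0.706 at 27.5 kb.

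**Figure D1:**
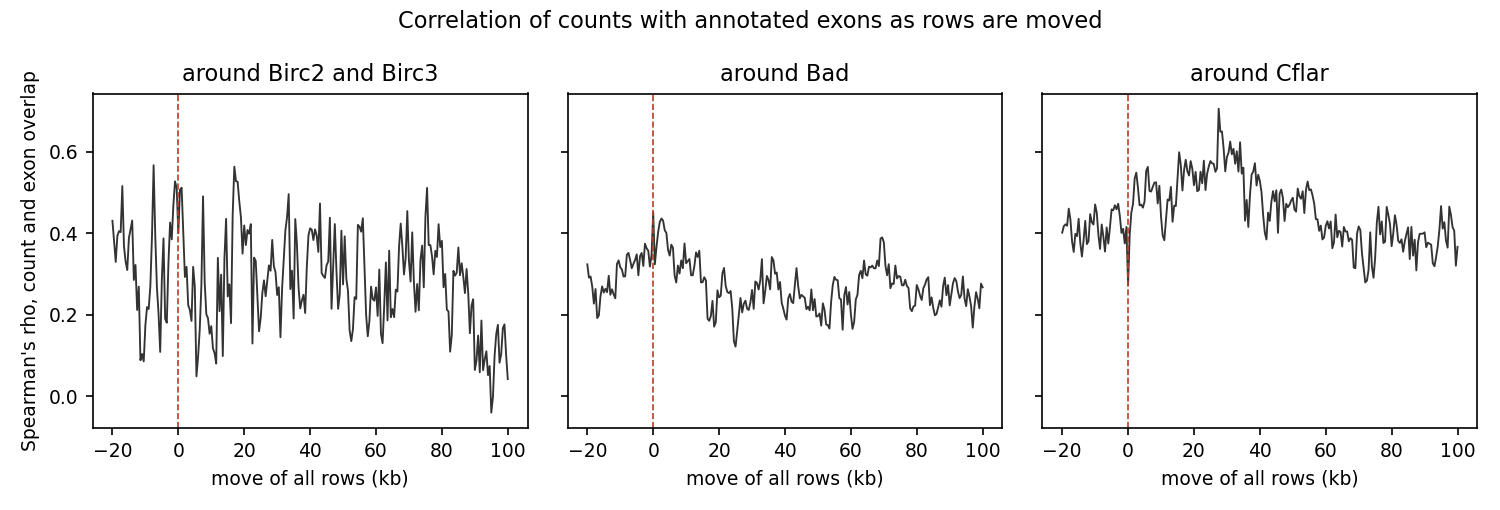
Spearman's rho across rows (vertical axis) between mean count and exon overlap, for moves of all rows of a window from -20 to 100 kb (horizontal axis), around Birc2 and Birc3, Bad and Cflar, with a dashed line at no move. The Cflar window peaks at 0.706 with a move of 27.5 kb, and the Birc2 and Birc3 window has no single peak. The Bad window is highest unmoved at 0.451 but nearly as high, at 0.4364, with a move of 2.5 kb. Unmoved coding rows overlap fully by construction, so the value at no move is not comparable with the others.

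These scans bear differently on the 4 rows. At every move from -10 to 10 kb in steps of 0.1 kb, the exons of the Birc2 row touched no annotated gene but Birc2, on which they lay in 143 of 201 moves. The Birc3 row touched only Birc3, in 197 of 201 moves, with 39.31% of its bases on Birc3 exons at 0.5 kb and 14.75% at 1 kb. The gap between Birc2 and Birc3, 11.63 kb, exceeds these moves, so neither row could reach the other gene. Larger moves, such as 17 kb with a rho of 0.5635, were not examined in this way. At -7.5 kb, 3.45% of the bases of the Birc2 row lay on Birc2 exons and 22.7% of those of the Birc3 row on Birc3 exons. The Cflar row, moved by 24 to 31 kb, lay partly on Cflar exons in 71 of 71 moves and otherwise touched only the pseudogene Gm3841. At 27.5 kb it covered 862 bases of Cflar exons, 6.8% of the row's 12669, so under that move the row would hold a part of the gene's reads. The Bad row came to lie on other genes within a short move. With a move of 0.5 kb 58.84% of its bases stayed on Bad exons, with 1 kb 23.89%, and with 1.5 kb none, when 833 of them lay on the neighbouring Plcb3. Whether any of these moves is right was not tested. Below, Birc2, Birc3, Cflar and Bad therefore name rows of counts, and which gene their reads come from was not tested.

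The Birc2 row, named for the gene of cIAP1, had a higher mean in transgenic than in knockout and control libraries. In transgenic libraries it ran from 151 CPM in replicate 1 to 227 CPM in replicate 4, with a median of 205 CPM. Knockout libraries held 162, 114, 138, 152 and 115 CPM for replicates 1 to 5. Control libraries ran from 126 CPM in replicate 6 to 181 CPM in replicate 2, with a median of 142 CPM. Of the 6 transgenic libraries, 5 were above all knockout and control libraries, and transgenic replicate 1 lay inside both ranges, so no pair of groups was fully separate. Means were 197.5 ± 27.12 CPM (SD, n = 6) in transgenic, 136.4 ± 21.61 CPM (SD, n = 5) in knockout and 147.2 ± 19 CPM (SD, n = 6) in control libraries.

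The fitted log2 fold change of Birc2 was 0.42 (SE 0.12) for transgenic against control, a 1.34-fold difference, and 0.53 (SE 0.13) for transgenic against knockout, a 1.45-fold difference. For knockout against control it was -0.11 (SE 0.12). Absolute changes larger than these were found in 24.5%, 24.2% and 79.7% of the 9986 rows tested. Leaving out knockout replicates 2, 3 and 5 gave 0.34 for transgenic against knockout, which then missed the threshold, and 0.09 for knockout against control, while transgenic against control was 0.43.

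**Figure D2:**
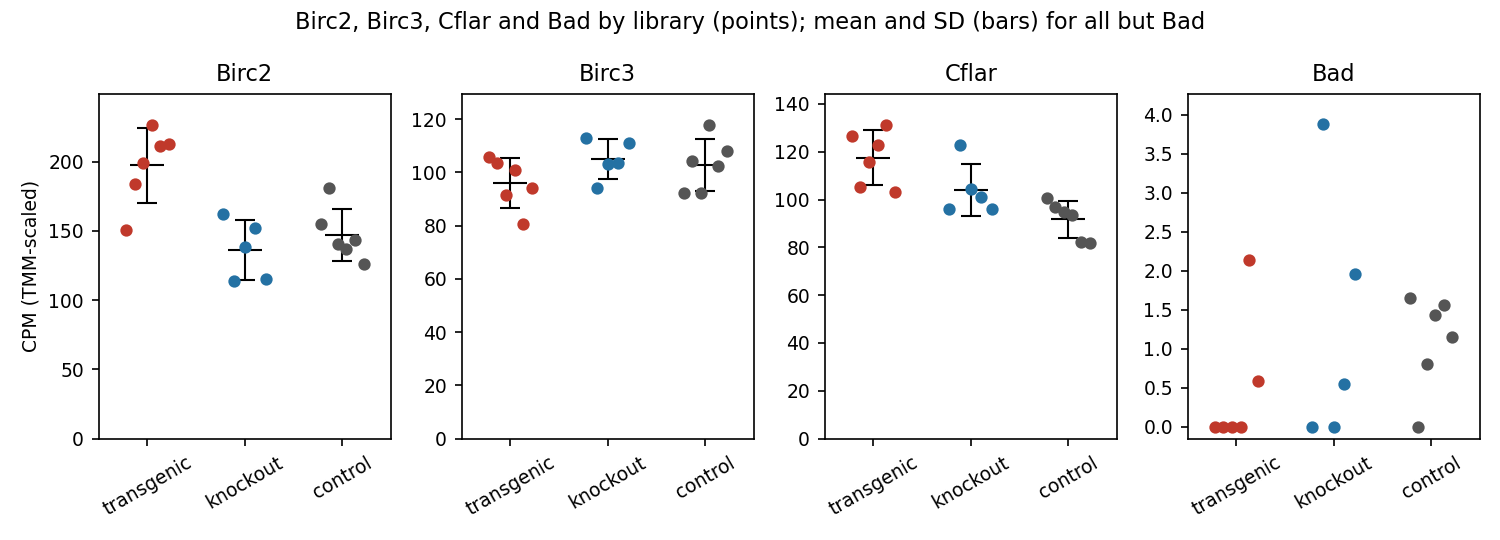
Library-scaled counts (CPM with TMM factors, vertical axis) of Birc2, Birc3, Cflar and Bad in each transgenic, knockout and control library (points), with the group mean and SD as bars for all but Bad. In Cflar all 6 transgenic points lie above all 6 control points, in Birc2 and Birc3 the groups overlap, and Bad is at 0 in 7 of 17 libraries.

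The lowest Birc2 values of the transgenic and knockout groups fell in libraries with a high mitochondrial share. Transgenic replicate 1, at 151 CPM, had 24.81% mitochondrial counts, the highest of its group. Knockout replicates 2, 5 and 3, at 114, 115 and 138 CPM, had 25.56%, 28.16% and 25.31%, against 22.04% and 22.55% in knockout replicates 1 and 4. In the control group the lowest value, 126 CPM in replicate 6, likewise stood with the highest share, 24.05%. Other libraries did not follow this order. Transgenic replicate 4, at 227 CPM, had 22.15%, and replicate 6, at 213 CPM, had 19.66%. Control replicate 2, at 181 CPM, had 21.95%, and replicate 4, at 137 CPM, had 20%. With group means taken off, Pearson's r of log2 Birc2 over 17 libraries was -0.66 with this share and 0.55 with rows above 0. The part of RNA quality in the Birc2 differences was not tested. Values without the 3 knockout libraries are those given above, and without transgenic replicate 1 Birc2 was 0.49 on the log2 scale for transgenic against control.

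**Figure D3:**
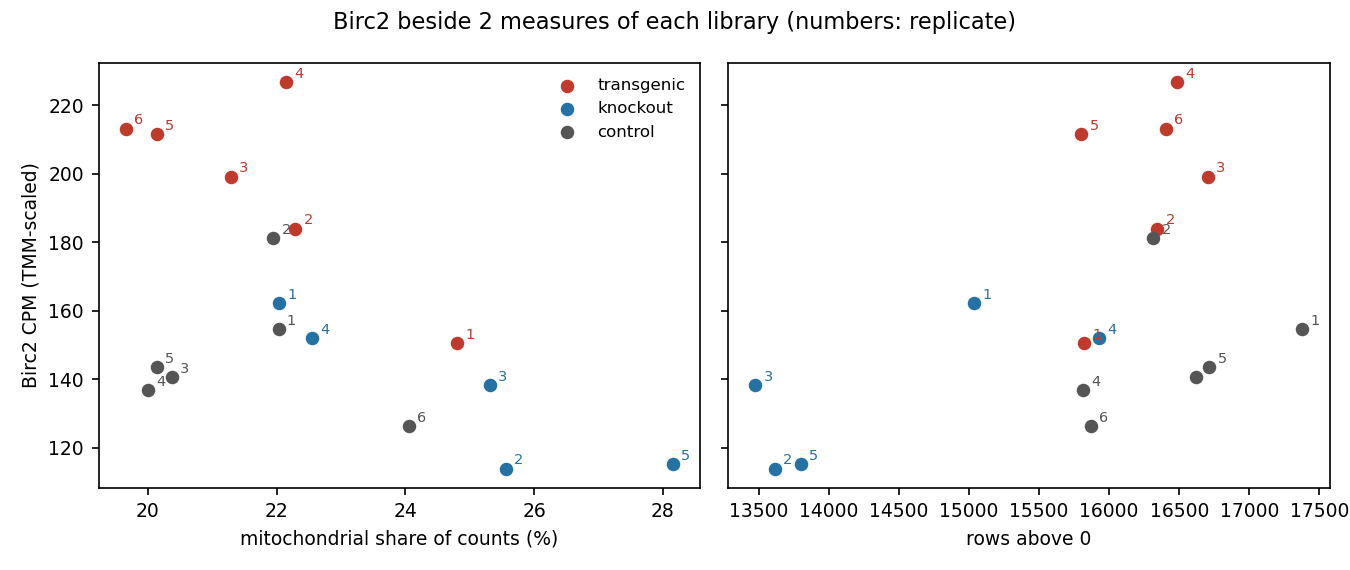
Birc2 (CPM with TMM factors, vertical axes) in each library against the mitochondrial share of counts in percent (left) and the number of rows above 0 (right), with colours for transgenic, knockout and control and replicate numbers beside the points. Knockout replicates 2, 3 and 5 have the fewest rows above 0, 13476 to 13802, and Birc2 of 114 to 138 CPM.

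The row of Birc3, the neighbour that encodes cIAP2, did not show the Birc2 pattern. Transgenic libraries ran from 80.5 CPM in replicate 5 to 106 CPM in replicate 1, with a median of 97.5 CPM. Knockout libraries held 113, 94.2, 103, 104 and 111 CPM for replicates 1 to 5. Control libraries ran from 92.2 CPM in replicate 3 to 118 CPM in replicate 4, with a median of 103 CPM. All 3 groups overlapped, and the transgenic library lowest in Birc2, replicate 1, was the highest of its group in Birc3. Means were 96.1 ± 9.405 CPM (SD, n = 6) in transgenic, 105 ± 7.453 CPM (SD, n = 5) in knockout and 102.8 ± 9.761 CPM (SD, n = 6) in control libraries. Fitted log2 fold changes were -0.10 (SE 0.09) for transgenic against control, 0.03 (SE 0.10) for knockout against control and -0.13 (SE 0.10) for transgenic against knockout. With library totals in place of TMM factors, knockout against control was -0.10.

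The Cflar row (ENSMUSG00000026031, chr1:58711508-58758884, GRCm38, plus strand), named for the gene of c-FLIP, was the 1 row of the 4 whose transgenic and control libraries did not overlap. At the best local move of 27.5 kb, 6.8% of its bases lay on Cflar exons. Transgenic libraries ran from 103 CPM in replicate 6 to 131 CPM in replicate 5, with a median of 119 CPM. Knockout libraries held 96.2, 123, 104, 101 and 96.1 CPM for replicates 1 to 5. Control libraries ran from 81.8 CPM in replicate 6 to 101 CPM in replicate 1, with a median of 94.2 CPM. Every transgenic library was above every control library, an arrangement found in 4.66% of the rows tested, and knockout libraries overlapped both groups. Means were 117.4 ± 11.5 CPM (SD, n = 6) in transgenic, 104.1 ± 10.98 CPM (SD, n = 5) in knockout and 91.72 ± 7.809 CPM (SD, n = 6) in control libraries.

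The log2 fold change of Cflar was 0.35 (SE 0.10) for transgenic against control, a 1.28-fold difference that was exceeded in absolute size by 31.1% of the rows tested. It was 0.18 (SE 0.10) for knockout against control and 0.17 (SE 0.10) for transgenic against knockout. Without knockout replicates 2, 3 and 5 these were 0.36, 0.10 and 0.26. The knockout mean lay between the others.

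Bad (ENSMUSG00000024959, chr19:6941861-6951899, GRCm38, plus strand) was close to the limit of detection and did not pass the filter on low counts. The deposited counts of transgenic replicates 1 to 6 were 0, 0, 0, 0, 7 and 2. In knockout replicates 1 to 5 they were 0, 12, 0, 2 and 6, and in control replicates 1 to 6 they were 8, 0, 3, 5, 5.34 and 4. Bad was above 0 in 2 of 6 transgenic, 3 of 5 knockout and 5 of 6 control libraries, with 9, 20 and 25 rounded counts in all, and the groups overlapped. The highest value was 3.89 CPM, in knockout replicate 2. In the 7 libraries at 0, a count of 0 allows up to 3 counts, so a difference of a few counts between groups was not detectable at this depth, and no fold change is given.

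The rows around Bad were examined since a move of 1.5 kb would put the neighbouring Gpr137 row on Bad exons, with 1094 bases or 32.21% of that row. Gpr137 held 33.66 ± 4.201 CPM (SD, n = 6) in transgenic, 30.37 ± 5.042 CPM (SD, n = 5) in knockout and 24.8 ± 3.901 CPM (SD, n = 6) in control libraries. In edgeR, transgenic against control gave a log2 fold change of 0.44 for the Gpr137 row (SE 0.14, adjusted p = 0.058), knockout against control gave 0.29 (adjusted p = 0.24) and transgenic against knockout gave 0.15 (adjusted p = 0.56). None passed the threshold. Which gene the reads of either row come from was not tested.

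Across the 3 rows that could be fitted, edgeR (adjusted p under 0.05, Benjamini-Hochberg over all 9986 rows) called Birc2 and Cflar higher in transgenic against control, where 5.23% of all rows were called higher. It called Birc2 higher in transgenic against knockout, where 6.34% were. In knockout against control it called 0 of the 3, where 1.89% of all rows were called in either direction. None of the 3 had an unadjusted p under 0.05 there, and DESeq2 and limma with voom also called 0. Since the genes were chosen with these values known, the counts describe them and support nothing further. Both calls against control were near the threshold. The Birc2 call ended in 11 of 28 other settings and the Cflar call in 8 of 28, although the values stayed between 0.37 and 0.49 and between 0.28 and 0.39. The Birc2 call ended without any 1 of transgenic replicates 3, 4, 5 and 6 or control replicates 3, 4, 5 and 6, and the Cflar call without any 1 of transgenic replicates 4 and 5 or control replicates 5 and 6.

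**Figure D4:**
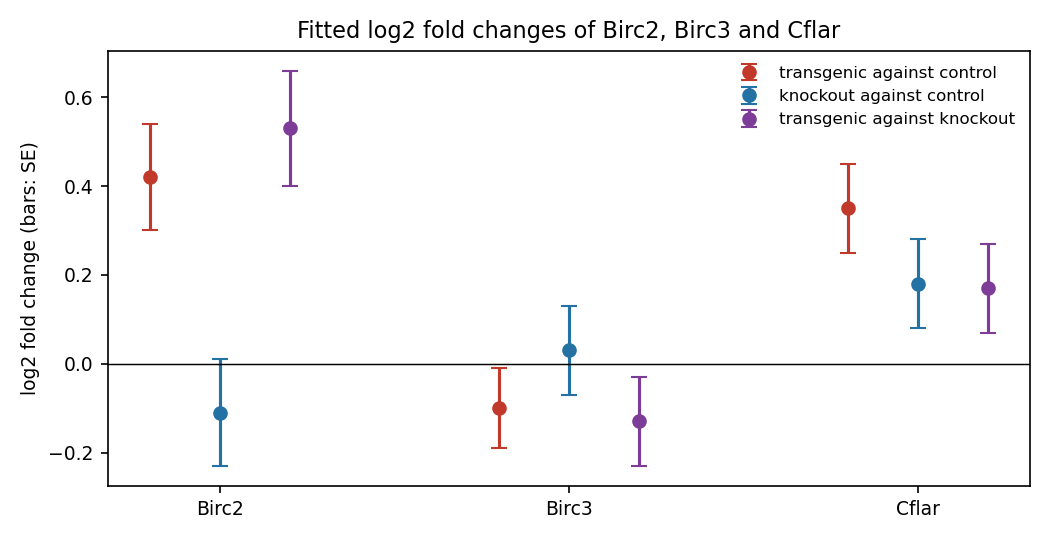
Fitted log2 fold changes (vertical axis) of Birc2, Birc3 and Cflar for transgenic against control, knockout against control and transgenic against knockout, with SE as bars. Birc2 lies at 0.42, -0.11 and 0.53, Birc3 within 0.13 of 0, and Cflar at 0.35, 0.18 and 0.17.

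Spread within groups differed among the 3 genes. Birc2 had an SD of log2 CPM of 0.21 in transgenic, 0.23 in knockout and 0.18 in control libraries, and 40.6%, 55.9% and 23.8% of 673 rows of like level varied more. Birc3 had 0.14, 0.10 and 0.14 in transgenic, knockout and control libraries, and Cflar had 0.14, 0.14 and 0.12. In knockout libraries, 95.1% of 931 rows of like level varied more than Birc3 and 88.0% of 919 varied more than Cflar. Birc2 was thus the most variable of the 3, and in knockout and transgenic libraries it was near the middle of rows of its level.

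The rows most like each gene were found by Pearson's r over the 17 libraries after group means were taken off, among 5616 rows. For Birc2 they were Parp14 (r = 0.95), Med14 (r = 0.94) and Dmtf1 (r = 0.93). For Birc3 they were Klf16 (r = 0.77), Zfp46 (r = 0.73) and Mex3d (r = 0.73), and for Cflar they were Clec2i (r = 0.83), Ccdc117 (r = 0.80) and Dync1h1 (r = 0.80). These are the highest of many values, all points share the same libraries and depth, and they are given as a description.

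Of the rows next to the 4 genes on their chromosomes, Tmem123, beside Birc2, held 377 to 608 CPM and was not called in any comparison, with log2 fold changes of 0.15 for transgenic against control, 0.31 for knockout against control and -0.15 for transgenic against knockout. Yap1, on the other side of Birc3, held at most 1.15 CPM. Casp8, which encodes the protease that c-FLIP restrains and lies beside Cflar, had 2.27 to 8.48 CPM in its own row, with log2 fold changes of -0.09, -0.08 and -0.01 for the same 3 comparisons. With a move of 27.5 kb, the Gm37760 row would lie on 273 bases of Casp8 exons. That row held 195 to 247 CPM, with log2 fold changes of 0.14, 0.04 and 0.10, none of them called. The Gm28803 row, next to Cflar, was called in transgenic against knockout, at 0.67 (SE 0.21, edgeR adjusted p = 0.047), and with the same move 136 of its bases would lie on Cflar exons.

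Around these genes, 9 lists of 125 genes from the same pathways were followed, of which 65 had a row that could be tested. Many of these rows did not stay on the gene they name at the best local move, so the names below are those of the table and each is called a row. At that move the Rbck1, Traf5, Bcl2, Bid, Casp9, Sfn, Cd83 and Irf4 rows had no bases on exons of their own gene. The Naip2, Tnfaip3, Relb, Bcl3, Ccr7 and Nfkbiz rows kept from 2.06% (Naip2) to 42.4% (Ccr7). Whether these moves are right was not tested. Of the 65 rows edgeR called 6 higher and 2 lower in transgenic against control, 0 higher and 1 lower in knockout against control, and 8 higher and 4 lower in transgenic against knockout. In either direction that is 12.3%, 1.54% and 18.5% of the list rows, beside 7.40%, 1.89% and 10.7% of all rows tested. DESeq2 called 12, 7 and 12 of them (18.5%, 10.8% and 18.5%, beside 9.51%, 5.74% and 13.8% of all rows), for the same comparisons in that order. Limma with voom called 10, 0 and 11 (15.4%, 0% and 16.9%, beside 7.52%, 1.35% and 10.6%). At an unadjusted p under 0.05, edgeR had 18, 21 and 20 (27.7%, 32.3% and 30.8%, beside 19.2%, 22.4% and 25.1%). The lists were chosen with earlier results known, so nothing is called particular to them from these shares. The median log2 fold change of all rows tested was -0.01, -0.02 and -0.00, and list medians below are given beside these.

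Of the inhibitors of apoptosis and their antagonists, 6 of 11 were tested and the Naip2 row alone was called. Naip2 is a sensor of bacterial secretion system proteins that carries the same BIR domains as the cIAPs. The Naip2 row held 11.4 ± 4.63 CPM (SD, n = 6) in transgenic, 0.964 ± 0.969 CPM (SD, n = 5) in knockout and 4.48 ± 1.52 CPM (SD, n = 6) in control libraries. Transgenic against control gave a log2 fold change of 1.35 for the Naip2 row (SE 0.38, edgeR adjusted p = 0.033), knockout against control gave -2.14 (SE 0.51, edgeR adjusted p = 0.034) and transgenic against knockout gave 3.49 (SE 0.50, edgeR adjusted p = 5e-05). The list medians were 0.17, -0.33 and 0.08. Naip2 belongs to a family of near-identical copies, so its count is uncertain, and the first 2 calls ended in 10 and 12 of 28 other settings. Without knockout replicates 2, 3 and 5, knockout against control was -1.31 and missed the threshold.

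Of the TNF receptor complex and its ubiquitin machinery, 14 of 20 were tested. The Tnfaip3 row, named for the deubiquitinase A20 that switches NF-kB signals off, fell by 1.49 on the log2 scale (SE 0.33, edgeR adjusted p = 0.0053) in transgenic against control. It averaged 209 ± 65.3 CPM (SD, n = 6) in transgenic, 291 ± 177 CPM (SD, n = 5) in knockout and 589 ± 237 CPM (SD, n = 6) in control libraries. Knockout libraries, from 116 to 515 CPM, overlapped both other groups. In transgenic against knockout the Rbck1 row, named for the HOIL-1 subunit of the linear ubiquitin ligase, rose by 1.44 (SE 0.30, edgeR adjusted p = 0.0031) and the row of the adaptor Traf5 fell by 0.70 (SE 0.17, edgeR adjusted p = 0.0099). Without knockout replicates 2, 3 and 5 the Traf5 row was -0.26 and missed the threshold. With the settings used throughout, no row of this list was called in knockout against control by edgeR or limma with voom, with 7 at an unadjusted p under 0.05 and 1 called by DESeq2, and the smallest edgeR p was that of Rbck1, at -0.96 (adjusted p = 0.087). That Rbck1 value passed the threshold in 5 of 28 other settings, which were DESeq2 and edgeR with no filter, with library totals, and without knockout replicate 2 (-1.36) or replicates 2, 3 and 5 (-1.44). Medians were -0.02, -0.14 and -0.03 for transgenic against control, knockout against control and transgenic against knockout.

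Of the death receptor pathway, on which c-FLIP acts, 5 of 10 were tested and edgeR, DESeq2 and limma with voom called 0 in transgenic against control and in transgenic against knockout, also at an unadjusted p under 0.05. In knockout against control edgeR and limma with voom called 0, with 1 at an unadjusted p under 0.05 and 1 called by DESeq2. The nearest were the Casp2 row, at 0.27 (edgeR adjusted p = 0.3) for transgenic against control and 0.46 (edgeR adjusted p = 0.085) for knockout against control, and the row of the receptor Fas, at -0.93 (edgeR adjusted p = 0.24) for transgenic against knockout. Without knockout replicates 2, 3 and 5 the Casp2 row turned to -0.03 in knockout against control. Medians were -0.09, 0.12 and -0.19.

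The BCL2 family holds the partners of Bad. Of its anti-apoptotic members 3 of 8 were tested, and the Bcl2 row fell by 0.59 (SE 0.18, edgeR adjusted p = 0.042) in transgenic against knockout, at 19.6 ± 2.47 CPM (SD, n = 6) in transgenic and 29.7 ± 8.34 CPM (SD, n = 5) in knockout libraries. That call ended in 18 of 28 other settings, and without knockout replicates 2, 3 and 5 the value was -0.35. In transgenic against control the Bcl2 row was at -0.51 (edgeR adjusted p = 0.087), and it passed the threshold in 3 of 28 other settings, which were library totals, only the 2 groups compared, and without knockout replicate 1. Of the BH3-only and effector members, 4 of 12 were tested, and the row of Bid, the BH3-only protein that caspase 8 cleaves, rose by 2.54 (SE 0.32, edgeR adjusted p = 1.2e-05) in transgenic against control and by 2.40 (SE 0.34, edgeR adjusted p = 4.8e-05) in transgenic against knockout. The Bid row held 16.3 ± 3.95 CPM (SD, n = 6) in transgenic, 3.14 ± 1.97 CPM (SD, n = 5) in knockout and 2.82 ± 0.661 CPM (SD, n = 6) in control libraries. Its transgenic libraries, from 8.69 CPM upward, were above all others. Every transgenic library was above every control library in 4.66% of the rows tested, and the share above both other groups is not given here. None of the bases of the Bid row stayed on Bid exons at the best local move of 54.5 kb, where 270 of them lay on Mical3. In knockout against control the smallest p of each list were those of Bcl2l2, at -0.26 (edgeR adjusted p = 0.4), and of the mitophagy receptor Bnip3l, at 0.29 (edgeR adjusted p = 0.22), which turned to -0.06 without the same 3 libraries. Medians were -0.46, -0.26 and 0.23 for the anti-apoptotic list and 0.30, 0.23 and 0.03 for the BH3-only and effector list.

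Of the caspases and the apoptosome, 4 of 10 were tested. The row of Casp9, the initiator caspase of the mitochondrial pathway, rose by 0.62 (SE 0.18, edgeR adjusted p = 0.038) in transgenic against control and by 0.67 (SE 0.19, edgeR adjusted p = 0.027) in transgenic against knockout. It held 22.9 ± 1.83 CPM (SD, n = 6) in transgenic, 14.4 ± 4.91 CPM (SD, n = 5) in knockout and 14.9 ± 1.36 CPM (SD, n = 6) in control libraries, and the calls ended in 15 and 8 of 28 other settings. In knockout against control the Dffa row, named for the inhibitor of the caspase-activated DNase, had the smallest p, at -0.66 (edgeR adjusted p = 0.25), and was -0.05 without knockout replicates 2, 3 and 5. Medians were -0.16, -0.19 and 0.02.

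Of the kinases, phosphatases and 14-3-3 proteins that act on Bad, 12 of 21 were tested, and the row of Sfn, the 14-3-3 protein sigma, fell in both comparisons of the transgenic group. Values of the Sfn row were 8.02 ± 3.18 CPM (SD, n = 6) in transgenic, 21.5 ± 10.5 CPM (SD, n = 5) in knockout and 15.1 ± 2.98 CPM (SD, n = 6) in control libraries. On the log2 scale the Sfn row fell by 0.91 (SE 0.28, edgeR adjusted p = 0.046) in transgenic against control and fell by 1.41 (SE 0.28, edgeR adjusted p = 0.002) in transgenic against knockout. Of 28 other settings 12 ended the call against control, and the call against knockout ended without knockout replicates 2, 3 and 5, at -0.90. Medians were -0.01, -0.02 and 0.03.

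Of 26 other NF-kB target genes 17 were tested. In transgenic against control, where 5.23% of all rows tested were called higher, 3 rows rose, the activation marker Cd83 by 1.25 (SE 0.16, edgeR adjusted p = 1.3e-05), the atypical IkB protein Bcl3 by 1.25 (SE 0.20, edgeR adjusted p = 0.00016) and the NF-kB subunit Relb by 0.44 (SE 0.13, edgeR adjusted p = 0.035). The Relb call ended in 13 of 28 other settings. In transgenic against knockout, where 6.34% of all rows were called higher, 4 rose, Bcl3 by 1.97, Cd83 by 0.94, the chemokine receptor Ccr7 by 2.77 and the transcription factor Irf4 by 0.66, with edgeR adjusted p of 2e-06, 0.0006, 0.015 and 0.015. The Nfkbiz row, of another atypical IkB protein, fell by 0.57 (SE 0.17, edgeR adjusted p = 0.034), and was named after its value was seen. Without knockout replicates 2, 3 and 5 the Ccr7, Irf4 and Nfkbiz rows missed the threshold, at 3.34, 0.68 and -0.11. In knockout against control edgeR and limma with voom called 0 of the 17, with 6 at an unadjusted p under 0.05 and 3 called by DESeq2. The smallest p was that of the Ccr7 row, at -2.64 (edgeR adjusted p = 0.058), which held 0.422 ± 0.536 CPM (SD, n = 5) in knockout and 2.76 ± 1.68 CPM (SD, n = 6) in control libraries, near the limit of detection. Medians were 0.13, -0.18 and 0.45. None of the 7 TNF receptor superfamily members listed for Tregs, such as Tnfrsf4 and Tnfrsf9, had enough counts to be tested.

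**Figure D5:**
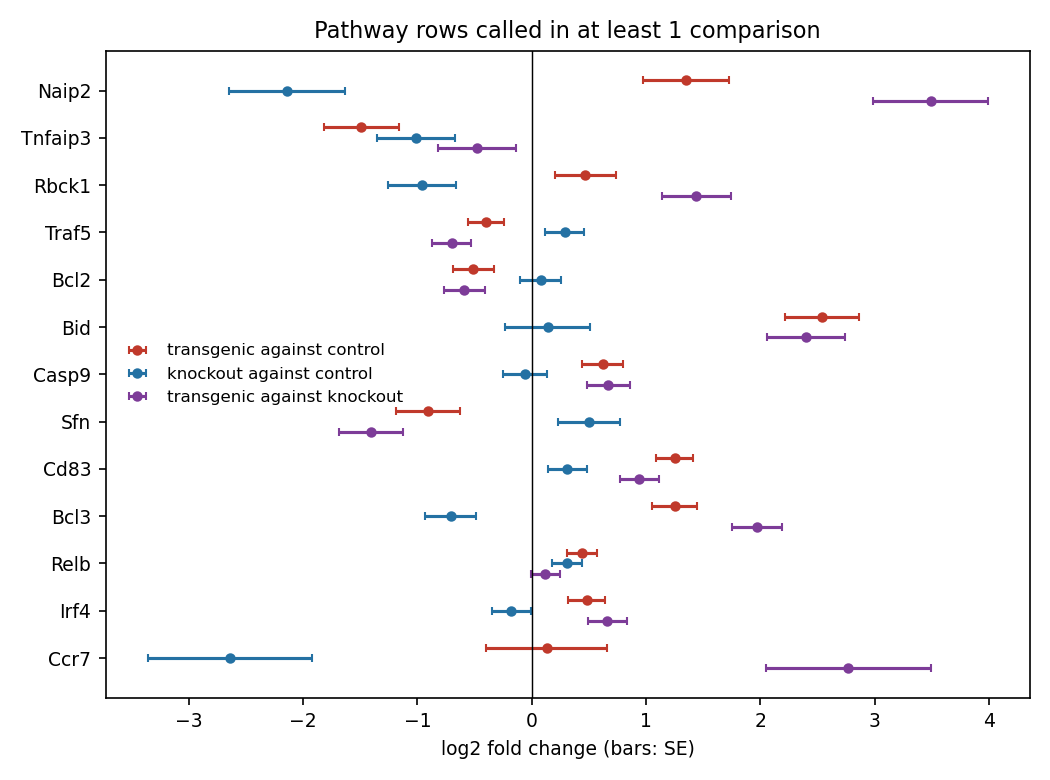
Log2 fold changes (horizontal axis, bars give the SE) of the 13 named pathway rows called in at least 1 comparison, for transgenic against control, knockout against control and transgenic against knockout. Bid, Cd83 and Bcl3 lie to the right in both comparisons of the transgenic group, Sfn lies to the left in both, and Naip2 is on opposite sides in transgenic and knockout against control.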

How the data were processed

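RNA of sorted splenic Tregs was read to 67 bp, with molecular identifiers of 9 bp and about 27 M reads stated per library, per the labels' protocols. A table of expected counts for 17 libraries was deposited by the authors, from reads aligned with Bowtie2 to GRCm38 per the submitters' processing notes and with Ensembl 102 transcripts per the series' design text. The sources used here do not say whether molecular identifiers removed duplicates or whether counting used strand, and limits from a count of 0 cover counting error only.

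Counts were rounded (5.873% were not whole) and 47224 of 47643 rows matched GENCODE annotation. Rows were tested with edgeR 4.0.16 (quasi-likelihood, TMM factors, filterByExpr, R 4.3.3), with all 17 libraries in 1 fit, Benjamini-Hochberg adjustment over 9986 rows and a threshold of 0.05. The common biological coefficient of variation was 0.241. Each SE is the absolute log2 fold change over the square root of F. The fit was run on counts simulated from its own mean levels and dispersions, with independent libraries. Such counts cannot show misplaced rows or differences in library quality. How animals map to libraries is not stated, so p-values reflect only the variation among libraries, which may be technical.

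The 4 genes and the 9 pathway lists were chosen with earlier results of these data known. Named pathway rows are up to 4 called rows of a list with the smallest p in each comparison, or the row with the smallest p where none was called. Some rows that this rule or the marker lists name are not reported here. Likeness between rows used log2 CPM with a prior count of 2, among rows averaging 3 or more on the log2 CPM scale, leaving out predicted and clone-named rows, and spread was compared with rows within 0.5 of the gene's average log2 CPM. Alternatives were RLE, upper quartile or no normalization factors, looser and stricter filters, limma 3.58.1 with voom, DESeq2 1.42.0, a fit of only the 2 groups compared, the replicate number as a block, counts without rounding, leaving out each library, and leaving out knockout replicates 2, 3 and 5.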

Additional observations from a re-analysis of the deposited data

Results flagged for a closer look

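Among 24 groups of values examined (the 4 genes and library measures, by genotype), 3 had a library standing far from the others. How often chance alone gives this was not tested. Bad in transgenic replicate 5 was 2.14 CPM, from 7 counts, while the other transgenic libraries had 0 to 2 counts. The total of control replicate 1 was 4.73 M counts, the highest of all. The TMM factor of transgenic replicate 1 was 0.864, and that library also had the lowest Birc2 of its group. Without that library the Birc2 log2 fold change for transgenic against control was 0.49.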

How the results depend on the processing

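Log2 fold changes of Birc2, Birc3 and Cflar were recomputed under 28 alternatives. Library totals in place of TMM factors, and all alternatives for the pathway rows, were chosen after seeing the data. Birc2 in transgenic against control kept its direction in all 28 and lost its call with upper quartile factors (0.38), library totals (0.37) and the replicate block (0.42). Cflar in transgenic against control did so with upper quartile factors (0.31), library totals (0.28), no filter (0.37) and the replicate block (0.36). Leaving out 1 library gave 0.38 to 0.49 for Birc2 and 0.32 to 0.39 for Cflar. Without knockout replicates 2, 3 and 5, Birc2 was 0.34 in transgenic against knockout and 0.09 in knockout against control, Casp2 and Bnip3l turned to -0.03 and -0.06 in knockout against control, and library totals turned Birc3 there to -0.10. The cause was not tested. Bad could not be fitted.

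Rows called in knockout against control numbered 189, against 571 with no filter, 573 with DESeq2, 76 with only the 2 groups compared, 67 with the block and 43 without knockout replicates 2, 3 and 5, and 88 to 1124 leaving out 1 library, with the most without knockout replicate 4 (1124), knockout replicate 1 (806) and transgenic replicate 1 (518), and the fewest, 88 to 111, without knockout replicates 2, 3 or 5 or control replicates 1, 3, 4 or 5. In transgenic against control they numbered 739, against 1226 with only the 2 groups, 1348 without those 3 libraries and 529 to 876 leaving out 1. In transgenic against knockout they numbered 1065, against 632 with only the 2 groups, 670 with the block and 735 to 1641 leaving out 1, the most without transgenic replicate 1. Pathway rows called in transgenic against control numbered 8, against 16 with only the 2 groups, 15 without those 3 libraries and 4 to 11 leaving out 1, with 4 or 5 without transgenic replicates 2, 3 or 6 or any control library. In knockout against control it was 1, against 2 with library totals, 4 with no filter, 7 with DESeq2 and 0 to 10 leaving out 1, the most without knockout replicates 4 (10) and 1 (9).

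The replicate numbers did not pair the libraries. Of 16 same-numbered pairs 1 correlated above 0.1 (r -0.52 to 0.36), and 2 of 17 libraries were most like their own number. Depth limits Bad, whose 7 libraries at 0 allow up to 3 counts each.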
